A study of Mus musculus with 10 samples.

Results

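The very long protein-coding genes are the coding genes of chromosomes 1 to 19 whose annotated start and end lie more than 500000 bases apart. They were chosen by length, biotype and chromosome alone. Genes of several named families (symbols that begin with Slc, Pde, Gri, Col, Adamts, Lam, Eph, Efn, Gpc or Sox, and Alk) were left out. Of 11860 coding genes on these chromosomes, 203 exceeded this length, 15 of them were left out by name, and the remaining 188 made up 1.18% of the 15899 genes of the matrix. Neurospheres grown from the brain subependymal zone of mice aged 10 weeks were subjected to immunoprecipitation against FLAG, and the recovered RNA was sequenced in 10 libraries. The FLAG cultures came from Mex3aFLAG/FLAG mice, which carry a knock-in FLAG tag on endogenous MEX3A, and the WT cultures from Mex3a+/+ mice of the same background, in which the antibody has no tagged protein to bind. Each genotype gave 2 libraries after formaldehyde crosslinking and 3 native libraries without it, and all cultures grew as floating spheres with EGF and FGF. The cultures are expanded cells and not the intact niche, and input RNA was not used here, so FLAG over WT combines RNA bound to the tagged protein with any difference in RNA level between cultures.

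Genes of this length are mostly intron. RNA polymerase needs hours to cross one of them, and the introns are spliced out and degraded in the nucleus, so reads that fall in introns mark nascent or unspliced nuclear RNA rather than cytoplasmic messenger RNA. Many of the longest mammalian genes encode proteins of neuronal connectivity, such as adhesion molecules, receptors, channels and their scaffolds, and several lie at common fragile sites, where DNA breaks under replication stress. MEX3A is a KH-domain protein that binds messenger RNA, and members of its family recognise short elements in the untranslated ends of transcripts.

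From the start and end in the matrix, the median length of the 188 genes was 733 kb, against 27.7 kb for the other coding genes, and 49 of them exceeded 1 Mb. In the GENCODE M21 annotation exons took up a median of 1.23% of the gene, against 17.4% in the other coding genes. The median of the longest intron was 261 kb, against 9.47 kb, and this intron exceeded 100 kb in 172 genes (91.5%), against 4.82% of the other coding genes. These introns began with GT and ended with AG in 185 of 188 genes (98.4%) and in 98.6% of the others. The form GTAAG stood at the start in 79 genes (42.0%, against 29.1% of the others) and GTGAG in 42 genes (22.3%, against 33.1%), read on the gene's own strand. The start of the longest intron is shown for 5 genes to which the results return, because nearly all of the sequence behind their values lies downstream of such sites. Each line gives the last 8 exon bases and the first 22 intron bases in GRCm38, 5′ to 3′ on the coding strand, with the first 2 intron bases in capitals.
Fam155a, chr8:9770055-9770084, minus strand: actgcaagGTaggcacagcgggttcctttc
Mecom, chr3:30509408-30509437, minus strand: ggccacaaGTaggtgcaatatcccttttct
Gabrg3, chr7:57323626-57323655, minus strand: taaacatgGTaagaaacacctgtgtttacc
Csmd3, chr15:48151539-48151568, minus strand: ctacaaagGTaagcatgaatttcttctgca
Npas3, chr12:53248740-53248769, plus strand: cagcagcgGTgagtagtcccgtccgagctg
The intron that follows took up 95.0% of Fam155a (537 kb), 83.7% of Mecom (500 kb), 50.5% of Gabrg3 (338 kb), 30.6% of Npas3 (252 kb) and 11.6% of Csmd3 (140 kb).

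The deposited values are on a log2 scale with nearly the same distribution in every library, from which read numbers cannot be had. At 84 of the 100 highest rank positions all 10 libraries held the same value (to within 1e-06), so a value at the top of the range stands for the rank of a gene within its library. The number of genes tied at the lowest value differed, with 329 in FLAG native replicate 1 and 178 in FLAG native replicate 3, against at most 3 elsewhere. The cultures held RNA of stem and progenitor cell markers, 9 of whose 10 listed genes were in the matrix with a median level of 7.24, while the 7 of 8 listed neuronal markers in the matrix had a median of 2.07. Of the markers of other cell types, 1 of 5 for oligodendrocytes was in the matrix (level 1.52), as were 3 of 5 for microglia (median 3.71) and 3 of 5 for endothelium (median 0.24). P-values below measure the spread between these libraries. The fits over all libraries treat the 10 libraries as independent, although those of 1 genotype and number may share a culture.

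Genes lying inside other genes showed what the values hold. In all 3506 pairs in which 1 gene of the matrix lay wholly within another, the host was at or above the nested gene in every library. This included 1274 pairs on the same strand without a shared exon base and 1019 such pairs on opposite strands. Among the very long genes, 96 hosted a nested gene, and the 459 pairs of this kind without a shared exon base followed the same rule. The values therefore behaved as totals over the whole gene from start to end, introns included, with reads on either strand and reads of overlapping genes entering both. For 177 of the 188 genes the strongest nested gene had less than 10% of the host's linear value. The exceptions included Ctnna3, the gene of alpha-T-catenin, which hosts Lrrtm3, and Dock2, which hosts Fam196b.

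Summed over the gene, the very long genes lay high. Their median level over all libraries was 7.15 on the deposited log2 scale, with quartiles of 4.19 and 8.88, against 3.32 for the other coding genes. A mean level above 8 was reached by 79 of them (42.0%) and by 1.89% of the other coding genes, and 35 of the 100 genes with the highest mean level in the matrix were very long. Divided by length, the order depended on the length used. Per kb of gene body their median was −2.44 (log2 value per kb) against −1.23 for the other coding genes, whereas per kb of exon it was 3.77 against 1.20. Across 11848 coding genes the level rose with gene length (Spearman's rank correlation of 0.60, a description across genes) and with exonic length (0.52), but among the 188 genes the relation with length was weak (0.10).

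**Figure D1:**
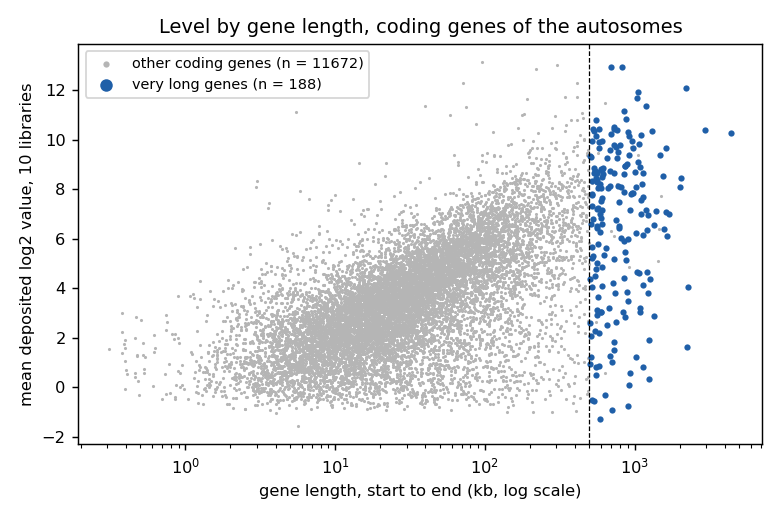
Mean deposited log2 value over 10 libraries (vertical axis) against gene length in kb (horizontal, log scale) for coding genes of the autosomes, with the 188 very long genes in blue to the right of a dashed line at 500 kb. The very long genes range from −1.29 to 12.93 around a median of 7.15.

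Npas3, Nav2, Lsamp and Cdh13 were among the 5 highest very long genes. Npas3, a bHLH-PAS transcription factor of neural progenitors, had values of 13.00 and 13.24 in the FLAG crosslinked libraries, 13.16 and 12.88 in the WT crosslinked libraries, 11.59, 13.64 and 12.16 in the FLAG native libraries, and 13.79, 12.16 and 13.64 in the WT native libraries. It ranked between place 4 and place 21 of all genes, and its groups overlapped. Nav2, a neuron navigator protein that acts on the cytoskeleton, ranked between place 4 and place 22. Per kb of gene body, these genes were also the highest of the 188, with levels of 3.47 for Nav2 and 3.24 for Npas3 on the log2 scale. Lsamp, an adhesion protein of the IgLON family, had a mean level of 12.08, and Cdh13, a cadherin anchored to the membrane by a lipid, one of 11.67. These 4 genes stood lowest in FLAG native replicates 1 or 3, where Npas3 ranked at place 21 and place 14.

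The lowest very long gene was Slit3, a secreted axon guidance ligand, with a mean level of −1.29. Its values were −0.25 and −3.20 in the FLAG crosslinked libraries, −2.68 and 0.66 in the WT crosslinked libraries, −0.72, −2.48 and 0.67 in the FLAG native libraries, and −3.55, 0.08 and −1.46 in the WT native libraries. The spread within every group exceeded any difference between groups. At the length threshold itself the levels were mixed. Just inside it lay Edil3 (501751 bases between start and end), Dock1, Car10, Stpg2 and Cpq with mean levels of 2.60, 9.36, 4.39, 0.96 and 6.58. Just outside it lay Dnm3 (495581 bases), Cacna1e, Gabrb1, Prkce and Dennd1a with mean levels of 5.84, 0.98, 1.17, 8.79 and 8.13.

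The very long genes took an uneven part of each library. Their share of the summed linear value was 10.1% to 10.5% in the 4 crosslinked libraries. Among native libraries it was 6.47%, 11.1% and 7.16% in FLAG replicates 1 to 3 and 12.2%, 8.42% and 13.3% in WT replicates 1 to 3. The crosslinked libraries were thus alike, whereas the native libraries were spread out, and the FLAG and WT ranges overlapped. Genes of short, abundant cytoplasmic messengers stood beside this. The median level of 76 cytosolic ribosomal protein genes was 4.74 and 4.55 in FLAG native replicates 1 and 3, 3.71 to 4.27 in the other native libraries, and 2.57 to 2.84 in the crosslinked ones. The median of 16 mitochondrial genes was 7.90 and 7.59 in FLAG native replicates 1 and 3, 5.76 to 7.37 in the other native libraries, and 2.58 to 3.86 in the crosslinked ones. Their part in the share of the very long genes was not tested.

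**Figure D2:**
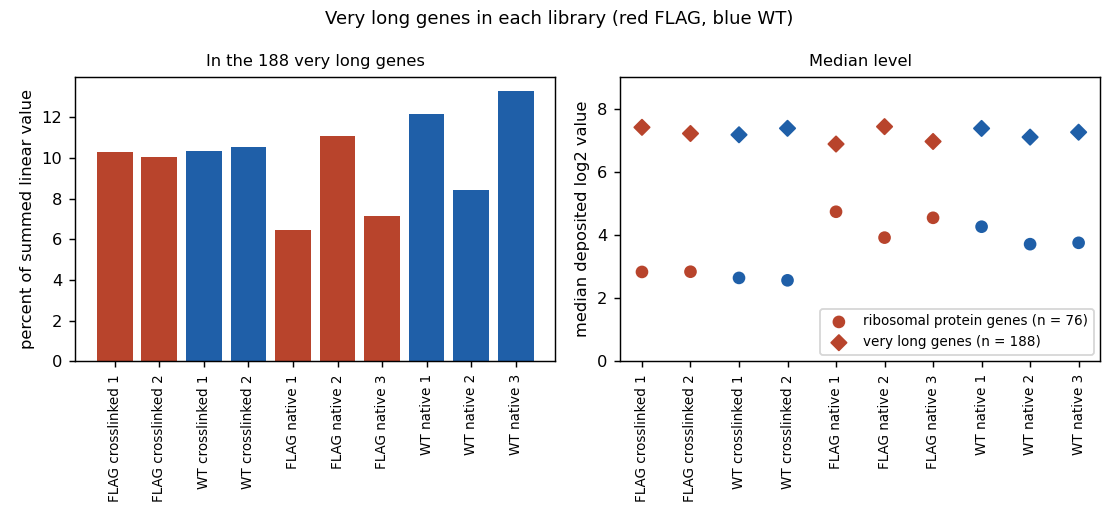
Left, bars give the percent of each library's summed linear value that fell in the 188 very long genes. Right, points give the median deposited log2 value of these genes (diamonds) and of 76 ribosomal protein genes (circles). The share was lowest in FLAG native replicate 1 (6.47%) and highest in WT native replicate 3 (13.3%).

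Whether MEX3A-FLAG pulled down RNA of these genes was asked by comparing FLAG with WT libraries, first for each protocol on its own and then in 1 fit of all 10 libraries that allowed for the protocol. Calls were made at a Benjamini-Hochberg adjusted p below 0.05 over all 15899 genes (limma) and a log2 fold change beyond 0.58. None of the 188 genes was called higher in FLAG in any of these comparisons, and 1, Fam155a, was called lower. After crosslinking 0 were called in each direction, where 0% of all genes were called higher and 0% lower. At an unadjusted p below 0.05 and the same fold change, 1 was higher and 3 lower (0.532% and 1.60%, against 2.78% and 0.987% of all genes). In the native libraries 0 were called higher (0% of all genes) and 1 lower (0.107% of all genes), and at an unadjusted p below 0.05, 17 were higher and 39 lower, or 9.04% and 20.7% of them against 7.77% and 7.06% of all genes. Over all libraries 0 were called higher (0.264% of all genes) and 1 lower, which is 0.532% of the 188 against 0.233% of all genes. At an unadjusted p below 0.05 in that fit, 8 were higher and 24 lower (4.26% and 12.8%, against 7.24% and 5.28% of all genes). Within each protocol no gene of the matrix was called higher, so those fits could not set the very long genes apart. With DESeq2 and the same thresholds, the paper reported RNAs enriched in FLAG over WT in both protocols.

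As a group, the very long genes had a median near that of all genes after crosslinking and below it without. The median of the log2 fold changes was −0.04 after crosslinking, beside −0.02 over all genes. Without crosslinking it was −0.29, beside −0.04 over all genes, with 130 of the 188 genes negative (69.1%, against 52.6% of all genes). Some cell type markers also differed between the genotypes. The log2 of the summed neuronal markers was 5.62 to 6.10 in FLAG and 5.77 to 6.21 in WT libraries, and that of the stem cell markers 10.99 to 11.46 and 10.96 to 11.43. For the 3 endothelial markers it was 2.08 to 2.44 in FLAG and 2.59 to 3.21 in WT, without overlap. Single markers whose genotypes did not overlap were Rbfox3 (neuronal, 2.91 to 3.73 in FLAG against 4.42 to 4.78 in WT) and Pecam1 (endothelial, −0.49 to 0.28 against 0.46 to 0.62), both lower in FLAG, and Gad1 (neuronal, 4.69 to 5.24 against 3.88 to 4.66) and Sox2 (stem cell, 4.01 to 5.25 against 3.13 to 3.76), both higher. The paper lists Sox2 among RNAs bound by MEX3A, so pull-down and RNA level in the cultures cannot be told apart for it. The part of these markers in the fold changes of the very long genes was not tested. For the very long genes over all libraries the median was −0.19, beside −0.03, with 125 negative (66.5%, against 53.2% of all genes). The difference of FLAG over WT between the protocols had a median of −0.23 (native minus crosslinked) beside −0.04 over all genes. In the fit of 4 groups, limma called 0 of the 188 genes for that difference, 0 of them passed an unadjusted p of 0.05 with a difference beyond 0.58, and the smallest adjusted p among them was 0.970. The native median rested on FLAG native replicates 1 and 3, the libraries with the most ribosomal protein and mitochondrial signal and the most tied low values. With these left out, which leaves 1 FLAG native library, it was 0.02, and over all libraries the median was then −0.02.

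Gene length ordered the native difference beyond the group itself. Among coding genes the native median fell from 0.44 for the 2365 genes under 10 kb to 0.05 for 10 to 50 kb, −0.16 for 50 to 100 kb, −0.25 for 100 to 200 kb and −0.36 for 200 to 500 kb. The 203 genes over 500 kb, here including those left out by name, had a median of −0.28, so the most negative class was the one below them. In the crosslinked libraries the medians ran from 0.09 for the shortest class to −0.06 for 200 to 500 kb and −0.04 for the longest. The quartiles of the longest class in the native libraries were −0.60 and 0.15, further apart than in the other 5 classes.

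**Figure D3:**
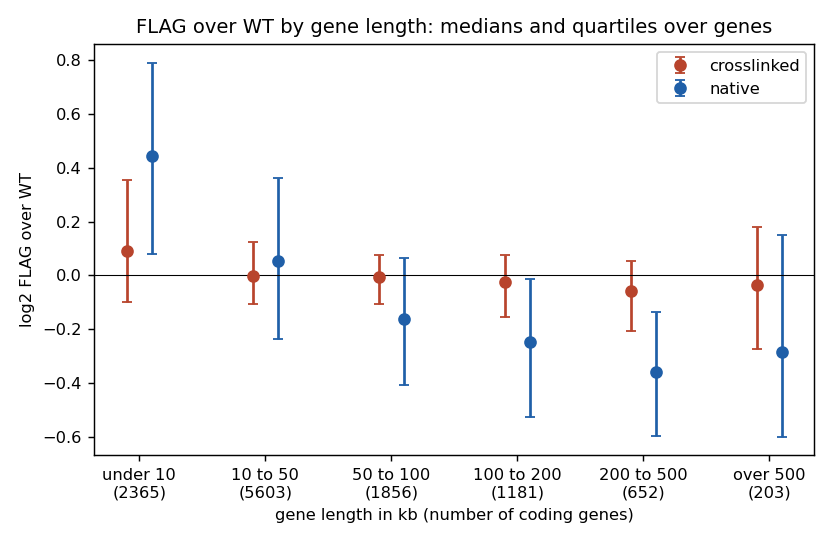
Median log2 FLAG over WT (points) with quartiles over genes (bars, not an error of the median) for coding genes in 6 length classes, crosslinked in red and native in blue. In the native libraries the medians run from 0.44 under 10 kb to −0.36 at 200 to 500 kb and −0.28 above 500 kb, while the crosslinked medians stay between −0.06 and 0.09.

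Fam155a encodes an accessory subunit of the sodium leak channel NALCN and lies at chr8:9205902-9771161 (GRCm38, minus strand), with no other gene of the matrix inside it and 1.16% of its length in exons. Its deposited log2 values were 4.55 and 2.70 in the FLAG crosslinked libraries against 5.58 and 6.04 in the WT crosslinked libraries. Native values were 4.09, 3.92 and 4.40 in FLAG against 6.61, 5.83 and 6.45 in WT. All FLAG libraries lay below all WT libraries. The log2 fold change was −2.17 ± 0.30 (SE) over all libraries (limma, adjusted p = 0.0203), −2.16 ± 0.25 in the native libraries (limma, adjusted p = 0.0285) and −2.19 ± 0.68 in the crosslinked ones (limma, adjusted p = 0.587). The native call was lost in 4 of the 6 fits that left out 1 native library (limma, adjusted p of 0.115 to 0.198), namely FLAG or WT replicate 1 or 3, and also without the trend (0.117) or in 1 fit of 4 groups (0.142). With the libraries of a culture number joined in a random block the change over all libraries was −2.16 and the call was lost (limma, adjusted p = 0.0643). It was also lost in 5 of the 10 fits that left out 1 library, with an adjusted p between 0.0521 and 0.0809 in limma for FLAG native replicate 1 or 3, WT crosslinked replicate 1 or WT native replicate 1 or 3.

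FLAG libraries lay below WT libraries in both protocols for 14 of the 188 genes (7.45%, against 4.47% of all genes) and above them for 2 (1.06%, against 4.84% of all genes). Among these 14, and apart from Fam155a, the largest decreases belonged to Fam19a1, Dlgap1, Sorcs1 and Auts2, none of which passed the test with all libraries. Fam19a1, a secreted chemokine-like protein, had values of 1.51 and 0.42 against 2.38 and 4.11 in the crosslinked libraries and of 0.22, 1.34 and 2.28 against 3.73, 3.23 and 3.50 in the native ones (FLAG against WT). With all libraries the log2 fold change was −2.24 ± 0.42 (SE; limma, adjusted p = 0.0508). Auts2, a chromatin regulator of brain development, was far higher in level and tighter, with 10.19 and 9.72 against 10.65 and 10.26 in the crosslinked libraries, and 9.86, 9.77 and 9.67 against 10.54, 10.51 and 10.71 in the native ones. The gap between its FLAG and WT libraries was small in log2 units (−0.69 ± 0.13, limma, adjusted p = 0.0508) but larger than the spread within the native groups. Dlgap1, a scaffold of the postsynaptic density, had a log2 fold change of −1.07 (limma, adjusted p = 0.0847) and Sorcs1, a sorting receptor of the VPS10 family, one of −0.84 (limma, adjusted p = 0.0983). Each of the 4 passed in some fits that left out 1 library (limma). Auts2 did so without FLAG crosslinked replicate 1 (adjusted p = 0.0352), FLAG native replicate 2 (0.0343) or WT crosslinked replicate 2 (0.0159), and Fam19a1 without FLAG native replicate 2 (0.0328) or WT crosslinked replicate 2 (0.0389). Dlgap1 passed without FLAG crosslinked replicate 1 (limma, adjusted p = 0.0406), and Sorcs1 without FLAG native replicate 2 (0.0420) or WT crosslinked replicate 2 (0.0359).

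The 2 genes with FLAG libraries above WT libraries within each protocol were Mecom and Pcdh15, and neither passed the test with all libraries. Mecom encodes a zinc finger transcription factor and has no other gene of the matrix inside it. Its values were 3.69 and 4.90 in FLAG against 1.83 and 2.28 in WT after crosslinking, and 2.65, 5.06 and 3.78 against 2.14, 2.15 and 1.97 in native conditions. The 5 WT values lay close together and the FLAG values were scattered, with a log2 fold change of 1.94 ± 0.40 over all libraries (SE; limma, adjusted p = 0.0661). It passed the threshold without FLAG native replicate 1 (2.29, limma, adjusted p = 0.0257), FLAG native replicate 2 (1.63, 0.0328) or WT crosslinked replicate 2 (1.96, 0.0496). Pcdh15, a large protocadherin known from the tip links of hair cells, had values of 9.39 and 9.39 against 7.52 and 8.85 after crosslinking and of 8.65, 9.55 and 8.66 against 7.82, 7.93 and 7.48 in native conditions. Its log2 fold change was 1.21 ± 0.25 (SE; limma, adjusted p = 0.0690), and 9.42% of its linear value lay in a nested gene. It passed without FLAG native replicate 2 (1.05, limma, adjusted p = 0.0391) or WT crosslinked replicate 2 (1.41, 0.0149).

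**Figure D4:**
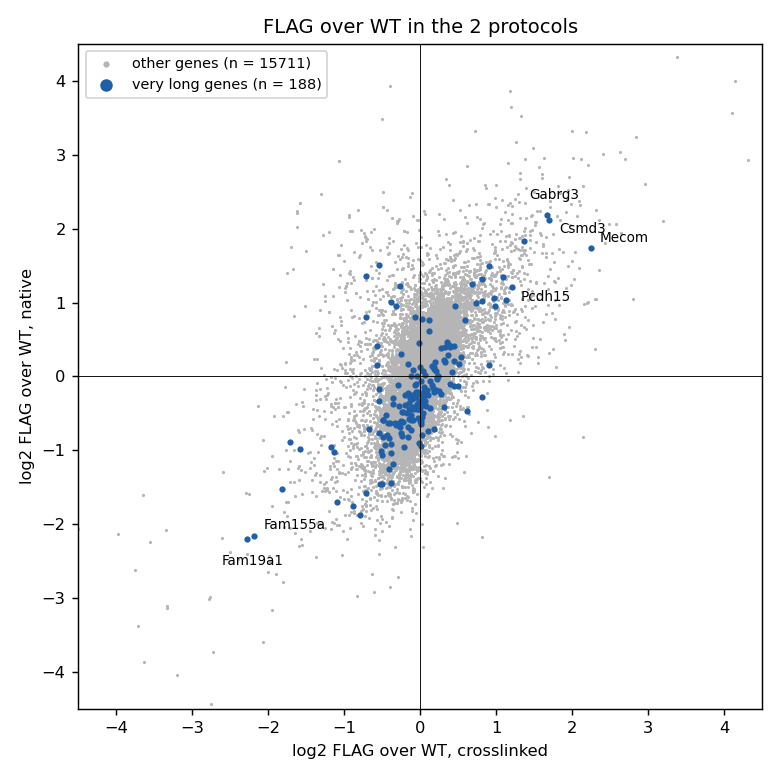
Log2 FLAG over WT in the crosslinked libraries (horizontal) and in the native libraries (vertical) for the 188 very long genes (blue) and the other genes (grey), with 11 of the grey points outside the axes. Fam155a and Fam19a1 lie near −2 on both axes, Mecom at 2.24 and 1.74, and most of the blue points below 0 on the vertical axis.

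The spread between libraries of a single group was described by the share of genes that differed by more than 1 log2 unit. The crosslinked WT libraries differed by more than 1 log2 unit in 50 of the 188 genes (26.6%), against 4.92% of the other coding genes and 6.30% of all genes. Among genes with a mean level above 5, a limit chosen after the values were seen, the shares were 15.3% (20 of 131 very long genes) and 3.40% of 2614 other coding genes. The crosslinked FLAG libraries differed by more than 1 in 29 genes (15.4%, against 3.11% of the other coding genes and 4.87% of all genes). Between native libraries the shares ran from 2.13% (against 3.65% of the other coding genes and 4.97% of all genes) between WT replicates 1 and 3 to 26.6% (against 20.8% and 26.0%) between FLAG replicates 1 and 2. For WT native replicate 2 they were 11.7% against replicate 1 (6.62% of the other coding genes, 10.5% of all genes) and 12.8% against replicate 3 (8.20% and 12.3%). These shares are descriptions of the libraries and carry no test.

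Most of the genes that set WT crosslinked replicate 2 apart were higher there. Of the 50 genes, 37 were higher and 13 lower in replicate 2 than in replicate 1, and in 40 of the 50 WT native replicate 2 stood on the same side of WT native replicates 1 and 3. In 32 of the 50 all 5 FLAG libraries stood on the same side of WT crosslinked replicate 1 as WT crosslinked replicate 2 did. Since the genes were picked for a WT crosslinked replicate 1 far from replicate 2, part of the second count is built into the choice. Among all 1002 genes picked in this way the shares were 71.9% for the first count and 62.5% for the second, against 80.0% and 64.0% of the 50, so neither is a result about the very long genes. These genes were named after their values were seen, except where the rule for named genes also chose them.

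Csmd3, a transmembrane protein with CUB and sushi domains, showed the largest gap. It had values of 1.50 and 7.11 in WT crosslinked replicates 1 and 2, a difference of 5.61 log2 units, and of 1.97, 5.04 and 2.85 in WT native replicates 1 to 3. The FLAG values were 6.50 and 5.49 after crosslinking and 5.13, 5.46 and 5.60 in native conditions. WT replicate 2 was therefore close to the FLAG cultures in both protocols and the other WT cultures were far below them, and the log2 fold change over all libraries was 1.94 ± 0.90 (SE; limma, adjusted p = 0.246). Gabrg3, a subunit of the GABA-A receptor, followed the same order, with 0.71 and 4.42 in WT crosslinked replicates 1 and 2 and 1.62, 3.22 and 1.18 in the WT native libraries. Its FLAG values were 4.68 and 3.79 after crosslinking and 3.78, 4.72 and 4.06 in native conditions. The log2 fold change was 1.97 ± 0.63 over all libraries (SE; limma, adjusted p = 0.140), and without WT crosslinked replicate 2 it was 2.59 and passed the threshold (limma, adjusted p = 0.0227).

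Ctnna2, the neuronal alpha-catenin that joins cadherins to actin, had 4.64 and 8.38 in WT crosslinked replicates 1 and 2, against 8.73 and 7.03 in the FLAG ones, and 5.37, 7.07 and 5.43 in the WT native libraries, against 7.93, 7.73 and 7.71. Kcnd2, a voltage-gated potassium channel, had 7.47 and 10.36 in WT crosslinked replicates 1 and 2 and 8.30, 9.14 and 8.19 in the WT native libraries, against 9.65 to 10.36 in the 5 FLAG libraries. Fgf14, an intracellular regulator of sodium channels, showed the opposite order. It had 11.02 and 9.66 in WT crosslinked replicates 1 and 2 and 11.26, 10.46 and 11.39 in the WT native libraries, against 9.65 and 9.96 in the FLAG crosslinked and 9.14, 10.26 and 9.35 in the FLAG native libraries. Of the WT cultures, replicate 2 was nearest to the FLAG values here too. With all libraries the log2 fold change was −1.09 ± 0.33 (SE; limma, adjusted p = 0.134), and without WT crosslinked replicate 2 it was −1.38 and passed the threshold (limma, adjusted p = 0.0285).

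**Figure D5:**
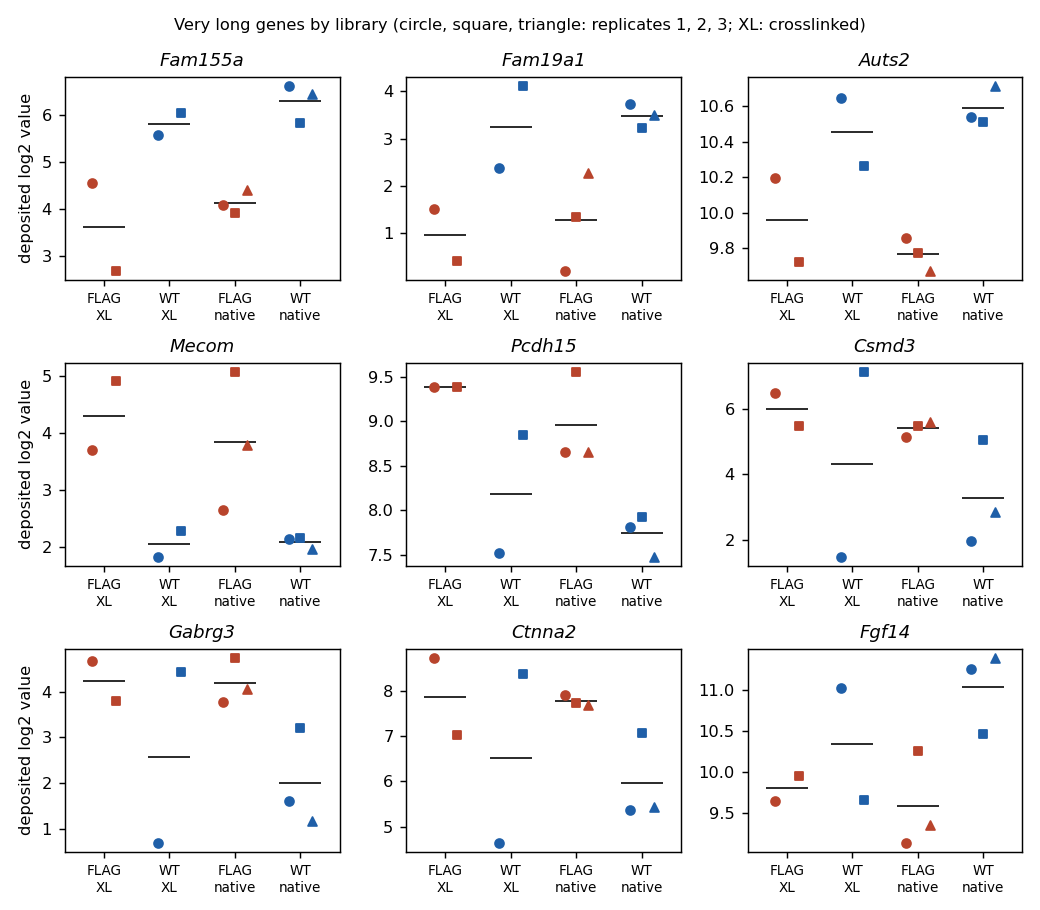
Deposited log2 values of 9 very long genes in each library, FLAG in red and WT in blue, with group means as lines and vertical axes that differ between panels. In the upper row FLAG lies below WT, Mecom and Pcdh15 show the reverse, and in Csmd3, Gabrg3, Ctnna2 and Fgf14 WT replicate 2 (squares) stands apart from the other WT libraries.

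Leaving out WT libraries of replicate 2 changed the calls. Over all libraries without WT crosslinked replicate 2, limma called 12 of the 188 genes higher and 14 lower in FLAG, where it called 1.14% and 1.38% of all genes. With both libraries of WT replicate 2 left out 10 were called higher and 15 lower, beside 1.15% and 1.32% of all genes. Leaving out FLAG native replicate 2 gave 15 higher and 57 lower in the native libraries, beside 9.12% and 10.8% of all genes. In bulk RNA, fewer cells of a type and less RNA per cell cannot be told apart, and neither can a difference between cultures and a difference in pull-down.

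By function, of the 188 genes, 125 were on at least 1 of 9 lists, and none of these 125 was called in the fit over all libraries or in the native libraries (limma). Each median below is the log2 fold change over all libraries, beside −0.19 for the 188 genes and −0.03 for all genes, and each count at an unadjusted p is read beside 7.24% higher and 5.28% lower of all genes. The 37 synaptic and cell adhesion genes had a median of −0.17, with 1 higher and 6 lower (2.70% and 16.2%) at an unadjusted p below 0.05. Among their highest in level were Lsamp (log2 fold change −0.85) and Cdh13 (−0.29). Cdh13 ran from −0.40 to −0.10 with libraries left out 1 at a time. The 14 genes of axon guidance and growth factor signalling had a median of −0.21, with 0 higher and 1 lower at that p. Highest among them were Sema6d, a transmembrane semaphorin (−0.02), Fgfr2, a receptor of fibroblast growth factors (0.41), and Fgf14 (−1.09, limma, adjusted p = 0.134). The annotated span of Fgfr2 reached 2961 kb and covered 24 other genes of the matrix, so its value holds their reads too.

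Receptors and channels spanned both signs. The 6 receptor protein tyrosine phosphatases had a median of −0.27, with 0 higher and 0 lower at an unadjusted p below 0.05, and the highest in level were Ptprg (−0.30), Ptprm (−0.25) and Ptprt (−0.55). Ptprm ran from −0.34 to −0.12 with libraries left out 1 at a time. The 14 ion channels and partners had a median of −0.32, with 1 higher and 3 lower at that p. Nkain2, a partner of the sodium pump, had a log2 fold change of 0.01, Kcnma1, a calcium-activated potassium channel, one of 0.14, and Kcnd2 one of 1.24 (limma, adjusted p = 0.170), which was 1.71 and passed without WT crosslinked replicate 2 (limma, adjusted p = 0.0179). Kcnd2 fell to 0.82 with another library left out. The 3 neurotransmitter receptors were the metabotropic glutamate receptors Grm5 (−0.55) and Grm8 (0.19) and the GABA-A subunit Gabrg3 (1.97), and their median of 0.19 is that of Grm8, which ran from 0.023 to 0.38 with libraries left out 1 at a time.

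Among nuclear and cytoplasmic regulators, the 12 transcription and chromatin regulators had a median of −0.02, with 1 higher and 1 lower at an unadjusted p below 0.05. Npas3 had a log2 fold change of −0.40, Rora, a nuclear receptor, one of −0.52, and Auts2 one of −0.69. Npas3 ran from −0.68 to −0.12 with libraries left out 1 at a time. The 4 RNA-binding proteins were all negative, from −0.70 to −0.12 with a median of −0.45, the furthest from 0 among the 9 lists, with 0 higher and 1 lower at that p. Celf2, a splicing and translation regulator, had −0.70 (limma, adjusted p = 0.0960), Rbms3 −0.48 and Rbfox1, a neuronal splicing factor, −0.12. Without WT native replicate 3 Rbfox1 turned to 0.12. Celf2 was −0.88 and passed without WT crosslinked replicate 2 (limma, adjusted p = 0.0113). The 26 scaffold, polarity and cytoskeletal genes had a median of −0.15, with 2 higher and 2 lower at that p. Their highest in level were Nav2 (−0.47), Ctnnd2, a catenin of dendrites (−0.35), and Exoc4, a subunit of the exocyst (−0.14). With libraries left out 1 at a time these ran from −0.79 to −0.16, from −0.50 to −0.13 and from −0.23 to −0.056. The 25 genes known as hosts of common fragile sites, most of which were also on other lists, had a median of −0.28, with 1 higher and 3 lower. The 63 genes on none of the lists had a median of −0.21, with 2 higher and 9 lower (3.17% and 14.3%) at an unadjusted p below 0.05, and included Fam155a.

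Crosslinking was compared with native conditions over all libraries with the genotype as a covariate. None of the 188 genes was called higher after crosslinking, where 1.17% of all genes were called, and 1 was called lower (0.532% of them, against 2.94% of all genes). The median log2 difference, crosslinked minus native, was 0.13, beside 0.06 over all genes, and 131 of the 188 genes were positive (69.7%, against 58.3% of all genes). Without FLAG native replicate 1 the median was 0.034, beside 0.043 over all genes, and without FLAG crosslinked replicate 1 it was 0.046, beside 0.051. The called gene was Cntn5, a contactin of neuronal adhesion with no nested gene in the matrix. Its values were 1.04 and 0.25 in the FLAG crosslinked libraries against 2.81, 1.92 and 3.47 in the FLAG native ones, and 1.05 and 1.40 in the WT crosslinked libraries against 2.82, 2.46 and 1.69 in the WT native ones. Every crosslinked library lay below every native one. The log2 difference was −1.59 ± 0.36 (SE; limma, adjusted p = 0.0322), and within cultures, with the culture number as a fixed block, −1.56 ± 0.19 (limma, adjusted p = 0.0134). With the replicate number alone as a block the adjusted p was 0.118 (limma), and it exceeded the threshold in 6 of the 10 fits that left out 1 library, up to 0.131 without FLAG crosslinked replicate 2. The 6 such libraries were both FLAG crosslinked replicates, FLAG native replicate 1, WT crosslinked replicate 1 and WT native replicates 1 and 2.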

How the data were processed

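Per the labels, 10 immunoprecipitated RNA libraries were made with a stranded kit and random hexamers, and condition and replicate number come from the labels. The authors deposited 1 matrix of log2 values, and the submitters' notes name cutadapt, Trimmomatic, HISAT2, featureCounts, limma and GRCm38. The methods name DESeq2 for normalization, whose size factors alone do not give libraries the same distribution, so the scaling behind the log2 values is not settled. The counted feature is not given in the sources used here. The methods state reads for all libraries together and not per library. The plan had assumed that a pseudocount might be needed, and the log2 values were used as deposited. Fits used lmFit and eBayes (with a trend) of limma 3.58.1 in R 4.3.3. FLAG was compared with WT per protocol and over all libraries adjusted for the protocol, and crosslinked with native libraries adjusted for the genotype, without a replicate block. Calls needed a Benjamini-Hochberg adjusted p below 0.05 over 15899 genes and a log2 fold change beyond 0.58. The fit was tested on simulated data. Exons, introns and nested genes came from GENCODE M21, which held all 188 very long genes, 176 of them with the same start and end. Sequences were read from GRCm38.p6.

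Across all genes the deviations from the group means of crosslinked and native libraries of the same genotype and number correlated at 0.15 to 0.39 (4 pairs), so these numbers pair the protocols, as found from the data. With the culture number as a random block, 0.044% of all genes were called higher and 0.0503% lower in FLAG over all libraries. Without that block these shares were 0.264% and 0.233%. Between FLAG and WT libraries of the same number the correlations were −0.43 to −0.15, so the same number was not taken to pair the genotypes. In the crosslinked libraries these correlations were −0.27. There the deviations within a genotype are equal and opposite, so crosslinked libraries of unlike number correlate at the same size, with a positive sign. Whether FLAG and WT cultures of unlike number were paired was not tested.

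The genes, lists and rules were chosen with earlier results of these data known. Named genes were those called over all libraries, the 5 largest changes in each direction among genes whose FLAG and WT libraries did not overlap in either protocol, the 5 longest, the 5 highest, those nearest the length threshold, the 3 highest of each list, and those called between protocols. Date-converted symbols were restored from the annotation. 1 stem cell marker and several markers of other cell types were not analysed here. 1 gene that this rule chose is not reported here.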

Additional observations from a re-analysis of the deposited data

How the results depend on the processing

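The median log2 fold changes of the very long genes kept to within the spread between libraries under most alternatives, while the small counts of called genes moved easily. Left out 1 at a time, the libraries gave 0 to 12 genes called higher and 0 to 14 lower in FLAG over all libraries, 0 to 15 higher and 0 to 57 lower in the native libraries, 0 and 0 in the crosslinked ones, and 0 higher and 0 to 1 lower between crosslinked and native. The medians then ran from −0.26 to −0.11, from −0.43 to −0.16, from −0.09 to 0.02 and from 0.03 to 0.16. Among all genes the same fits over all libraries called 0.0252% to 3.25% higher and 0.044% to 1.38% lower. In the native libraries they called 0% to 9.12% higher and 0% to 10.8% lower. Between crosslinked and native they called 0.151% to 1.96% higher and 1.33% to 4.83% lower. Reads per library are unknown, and low values carry a counting error that cannot be given.

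Over all libraries the count called lower in FLAG was 2 with a pseudocount of 1 (0.245% of all genes), with a mean level above 3 (0.396%) or with a length threshold of 400000 (0.233%), 3 with a median shift (0.258%), a robust fit (0.289%) or the named families kept (0.233%), and 0 with 1 fit of 4 groups (0.0566%), a threshold of 1000000 (0.233%) or the culture number as a random block (0.0503%). In the native libraries it was 3 with the named families kept (0.107% of all genes). It was 0 without the trend (0%), with 1 fit of 4 groups (0.0189%) or with a threshold of 1000000 (0.107%). With array weights, which ran from 0.124 for FLAG native replicate 1 to 10.2 for FLAG crosslinked replicate 2, 25 were called higher and 32 lower over all libraries (beside 6.95% and 6.06% of all genes), 20 and 55 in the native libraries (10.4% and 12.1%), and 4 lower between crosslinked and native (6.25%), whose median turned to −0.13. The call of Cntn5 was lost (0 lower) with a pseudocount of 8 (0.918% of all genes) or the replicate block (1.69%). The filter for a mean level above 3 left Cntn5 out of the fit.

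The following were chosen after seeing the data. With FLAG native replicates 1 and 3 left out, 1 gene was called higher and 0 lower over all libraries (0.0503% and 0.0629% of all genes) and likewise in the native libraries (0.00629% and 0.0503%), whose median was 0.021, and 0 lower between crosslinked and native. This leaves 1 FLAG native library, assumed to vary like the others, so that in the native comparison the WT libraries alone give the spread. With both libraries of WT replicate 2 left out, the counts were 10 higher and 15 lower over all libraries, 4 and 3 in the native libraries (beside 0.138% and 0.208% of all genes), and 0 lower between crosslinked and native. The replicate block changed no other call of the 188 genes, with 0 higher and 1 lower over all libraries, and the crossed block between the crosslinked genotypes called 0 genes.

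Of 39 named genes, 19 moved by over 1.5 times or changed sign without 1 of the libraries. In all, 17 that did not pass over all libraries passed with array weights, Cntn5 with the other sign, 10 of them without WT crosslinked replicate 2, 9 with both libraries of WT replicate 2 left out, 5 without FLAG native replicate 2, 2 each with a median shift, a robust fit or without FLAG crosslinked replicate 1, and 1 each with a pseudocount of 1, a mean level above 3, or without FLAG native replicate 1 alone or with replicate 3. Beside these, array weights called 6.95% of all genes higher and 6.06% lower. The shares were 1.14% and 1.38% without WT crosslinked replicate 2, 1.15% and 1.32% without both libraries of WT replicate 2, and 3.25% and 1.17% without FLAG native replicate 2. The other settings listed called at most 0.34% higher and 0.396% lower. Part of the 39 were chosen for large changes in these data, so their gains are no result about the very long genes. Some changes over all libraries took the other sign. With array weights these were Cdh13 (0.072), Cntn5 (−0.65), Exoc4 (0.050), Fgfr2 (−0.018), Nav2 (0.097), Npas3 (0.038) and Sema6d (0.20). With FLAG native replicates 1 and 3 left out they were Cdh13 (0.014), Cntn5 (−0.50), Cntnap2 (0.042), Exoc4 (0.056), Nav2 (0.24), Npas3 (0.25), Ptprd (−0.17), Rbfox1 (0.16) and Sema6d (0.24). With 1 fit of 4 groups they were Cntn5 (−0.085), Nkain2 (−0.00903), Ptprd (−0.00344) and Sema6d (0.023). A pseudocount of 8 gave −0.00105 for Ptprd, the random block −0.000302 for Dock1, and leaving out WT replicate 2 gave −0.15 for Car10 and −0.014 for Dock1. With libraries left out 1 at a time the ranges were −0.17 to 0.60 for Car10, −0.24 to 0.23 for Cntn5, −0.46 to 0.21 for Cntnap2, −0.052 to 0.050 for Dock1, −0.019 to 0.26 for Kcnma1, −0.35 to 0.26 for Nkain2, −0.26 to 0.38 for Ptprd, −0.35 to 0.12 for Rbfox1 and −0.11 to 0.092 for Sema6d. The cause was not tested.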

Other observations

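The set depends on gene models in a few places. In GENCODE M21, 186 of the 188 genes still exceeded 500000 bases, and the exceptions were Chd1, a chromatin remodeller, and Arhgap26. Their spans in the matrix were 1689931 and 774750 bases, against 67643 and 383139 in M21. The longest span belonged to Gm20388 (4435 kb), which covered 63 other genes of the matrix, and Ankrd11 alone had 25.8% of its linear value. Schip1 and Gm21949 shared nearly all of their bases on the same strand, and their values differed by at most 0.01 log2 units in any library. They are counted as 2 genes. Gm37013, Gm37388 and Gm42416 on chromosome 18 likewise overlapped on 1 strand over all of the shorter span, with values at most 0.11 log2 units apart, and are counted as 3 genes. Of the genes nested in the 188, 135 were annotated as TEC and 121 as coding. The very long genes were spread over all 19 autosomes, from 5 genes on chromosomes 15, 17, 18 and 19 to 19 genes on chromosome 8.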
